A study of Mus musculus with 180 samples.

Results

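The 9 genes described here are Cnn3, Cnn2, Tpm4, Tpm1, Tpm3, Tagln2, Mfap2, Dok2 and Nup62. They were chosen from earlier results of the same cells, because several of them stood high in fetal liver HSC, together with relatives that bind actin. All 9 are among the 14825 genes of the expression table, and all 9 passed the filter on low values (10% of the cells of a population, in any of the 4, at or above a TPM of 1), as did 10856 genes in all. Since the choice rested on levels in these cells, those levels are given as a description and no test is made on them.

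Single cells of 4 mouse populations were compared, each cell giving 1 cDNA library. FL HSC (56 cells) came from Rosa LSL-Hoxb5-EGFP/+ embryos at Day14.5 and were Lin- and CD45.2+, with Sca1, c-kit, CD150 and CD11b on their surface. Their source field reads bone marrow, while their sample names and the study's methods give fetal liver. BM HSC (36 cells) and WT-MPP (41 cells, CD48-CD150-CD135+) came from the marrow of 8-week-old Rosa LSL-Hoxb5-EGFP/+ mice. In these 3 populations the Hoxb5-EGFP cassette was carried behind its stop signal with no Cre. CD11b+CD48+SK cells (47 cells) were GFP+ and donor-derived. They were taken at Week 8 post-transplantation from the marrow of irradiated CD45.1+ recipients that had received MPP of Mx1cre/Rosa LSL-Hoxb5-EGFP/+ mice, in which pIpC switches on Mx1-driven Cre and so ectopic Hoxb5. All mice were on a C57BL/6 background. The CD11b+CD48+SK cells therefore differ from the others in Mx1cre, Hoxb5, pIpC, irradiated host and time since transplantation together. These cannot be told apart. WT-MPP were sorted as negative for both CD11b and CD48, so their comparison with CD11b+CD48+SK cells also holds opposite sort gates. FL HSC differ from BM HSC in both age and organ, which cannot be told apart either, and both FL HSC and CD11b+CD48+SK cells were gated on CD11b. The labels name no animals. Each population was therefore treated as 1 sample, and SDs below are over cells and not over animals.

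Actin filaments give a cell its cortex, and proteins that lie along them set how stable they are and which motors and severing factors reach them. Tropomyosins run as coiled coils along the filament, calponins and transgelins bind and stabilise it, and non-muscle cells use Tpm1, Tpm3 and Tpm4 together with Cnn2, Cnn3 and Tagln2. The other genes work elsewhere. Mfap2 encodes MAGP-1, a protein of extracellular elastic microfibrils, Dok2 an adaptor that restrains signalling from tyrosine kinases in blood cells, and Nup62 a central channel protein of the nuclear pore.

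Sequences upstream of 3 genes are shown because they belong to Cnn3 and Cnn2, calponin paralogs with unlike patterns, and to Mfap2, which was present in most FL HSC and in few other cells. They are RefSeq sequences of build GRCm38.p6, the release line of mm10 named by the labels, on the plus strand from 5′ to 3′, and they end just before the annotated gene. Capitals mark every match to the motif GGGCGG, the motif CCAAT, the motif CATTCC, the motif TATAAA and the CArG box (the recognition sequence of serum response factor, which controls many actin genes), searched on both strands. The first belongs to Cnn3 (chr3:121426291-121426496), the next to Cnn2 (chr10:79988350-79988583) and the last to Mfap2 (chr4:141010174-141010417).
Cnn3: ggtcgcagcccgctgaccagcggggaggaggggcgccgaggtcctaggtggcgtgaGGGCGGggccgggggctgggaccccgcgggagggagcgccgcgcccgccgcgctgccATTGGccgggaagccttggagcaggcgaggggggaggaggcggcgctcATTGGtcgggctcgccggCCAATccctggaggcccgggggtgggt
Cnn2: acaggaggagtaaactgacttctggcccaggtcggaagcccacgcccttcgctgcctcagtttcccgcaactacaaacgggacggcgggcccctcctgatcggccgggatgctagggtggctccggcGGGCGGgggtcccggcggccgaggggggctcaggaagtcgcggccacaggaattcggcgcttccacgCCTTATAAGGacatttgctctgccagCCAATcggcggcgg
Mfap2: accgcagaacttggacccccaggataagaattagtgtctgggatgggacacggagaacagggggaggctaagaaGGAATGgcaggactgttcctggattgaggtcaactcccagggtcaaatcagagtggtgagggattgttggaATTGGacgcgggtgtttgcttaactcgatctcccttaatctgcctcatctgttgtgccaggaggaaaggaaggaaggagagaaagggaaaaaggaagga

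The 250 bases upstream of the Cnn2 start held 1 CArG box match, CCTTATAAGG, with its first base at −56. A match was present in 1.47% of the 32851 promoter windows of the same length, and none of the other 9 windows of these genes held one. The Cnn3 window held 3 CCAAT matches, at −137, −89 and −71, and 1 GGGCGG match at −194, where CCAAT occurs in 33.8% and GGGCGG in 32.7% of all windows. The Mfap2 window shown held 1 CCAAT match at −105 and 1 CATTCC match (the core letters of TEAD factor sites) at −176, and CATTCC occurs in 12.6% of all windows. No window of these genes held TATAAA, found in 12.4% of all. The windows of Cnn3 and Tpm4 were each 78.8% GC, with 28 and 27 CpG dinucleotides, against a median of 52.4% GC and 6 CpG. Of the 9 genes 8 had a window, Tpm3 and Mfap2 had 2 windows each, and Dok2 was not matched. These are letter matches only.

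In the GENCODE annotation of GRCm38, the 9 protein-coding genes lie apart on 8 chromosomes. Cnn3 (chr3:121426497-121458207) and Tpm3 (chr3:90072649-90100902) share chromosome 3, while Cnn2 (chr10:79988584-79996062), Tpm4 (chr8:72134975-72153142), Tpm1 (chr9:67022590-67049406), Tagln2 (chr1:172500047-172507380), Mfap2 (chr4:141010418-141015984), Dok2 (chr14:70766036-70778495) and Nup62 (chr7:44816088-44830812) are each alone on theirs. Some of their reads could belong to other genes. Of the 50-base stretches in their transcripts, 40% of Tpm3 also occur in the gene copy Tpm3-rs7. In Cnn3, 12.2% occur in the overlapping Gm42928, 9.24% in the pseudogene Gm4815 and 7.26% in the pseudogene Gm17936, and in Tpm4 12.1% occur in the pseudogene Gm7809. None of these 5 copies is listed in the table, so how the authors' counting split such reads is not visible, and the levels of Tpm3, Cnn3 and Tpm4 are uncertain to that degree. Nup62 overlaps Il4i1 on its own strand and Atf5 on the other, whose mean log2(TPM+1) was at most 0.17 in every population, and the start of Dok2 overlaps the opposite-strand gene Xpo7, at 0.71 to 1.21.

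Depth is unknown because TPM discards counts. Its stand-in here is how many genes a cell held at or above a TPM of 1 (called present). The median of this number was 5206.5 in FL HSC, 4514 in CD11b+CD48+SK cells, 4441.5 in BM HSC and 3844 in WT-MPP, so the population with the highest levels below also had the most genes present. Nonzero values short of this cut numbered 699 per cell (median) in FL HSC and 699 in CD11b+CD48+SK cells. They numbered 1445.5 in BM HSC and 1392 in WT-MPP. Whether this bears on the shares of cells with a gene present was not tested. All 6 haematopoietic markers (Ptprc, Kit, Cd34, Ly6a, Spi1, Runx1) were detected in each population and at least 1 in every cell. Of stromal markers 2 of 8 are listed, and of smooth muscle markers only Tagln, present in 1 of the 180 cells.

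FL HSC had the highest mean log2(TPM+1) of the 4 populations for 8 of the 9 genes, the exception being Tagln2. For Cnn2, Tpm3 and Tagln2 this order depended on the setting. For Cnn2, FL HSC exceeded WT-MPP by 0.84, but the value was -0.35 after median-ratio scaling of the cells, -0.71 among cells with 4000 to 5000 genes present (where that from CD11b+CD48+SK cells was -0.00093) and -0.083 when TPM was averaged before the log. The Tpm3 differences from WT-MPP, BM HSC and CD11b+CD48+SK cells became -0.63, -0.49 and -0.11 with that scaling, and the one from BM HSC -0.12 among the cells with 4000 to 5000 genes present. Among those cells the Tagln2 difference from BM HSC was 0.24, so that FL HSC were not the lowest there. Over all 10856 genes FL HSC was the highest for 48.6%. For 6 genes (Cnn3, Tpm4, Tpm1, Mfap2, Dok2 and Nup62) FL HSC lay above each other population by 1 or more on the log2 scale, against 11% of all genes. Tpm1 did not keep this: its difference from WT-MPP was 0.91 with median-ratio scaling, that from CD11b+CD48+SK cells 0.92 with a pseudocount of 10, and with TPM averaged before the log the differences from WT-MPP, BM HSC and CD11b+CD48+SK cells were 0.29, 0.60 and 0.53. With averaging first, Tpm4 was also below 1 against CD11b+CD48+SK cells (0.95), and Nup62 against these (0.78) and BM HSC (0.97). Counted by pair, 6 of the 9 genes were higher by 1 or more in FL HSC than in WT-MPP (33.9% of all genes), 7 than in BM HSC (25.6%) and 6 than in CD11b+CD48+SK cells (20.9%). The Cnn2 difference from BM HSC, 2.09, was 0.73 with TPM averaged before the log. None of the 9 was lower in FL HSC by 1 or more than in WT-MPP (3.08% of all genes), BM HSC (5.44%) or CD11b+CD48+SK cells (4.02%), although with median-ratio scaling Tagln2 stood at -1.47 against WT-MPP. The 3 comparisons share the FL HSC cells, and the choice of genes used them, so nothing is read from these counts. The median difference over the 9 genes was 5.53, 2.65 and 1.71 in that order, and over all genes it was 0.56, 0.31 and 0.32.

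**Figure D1:**
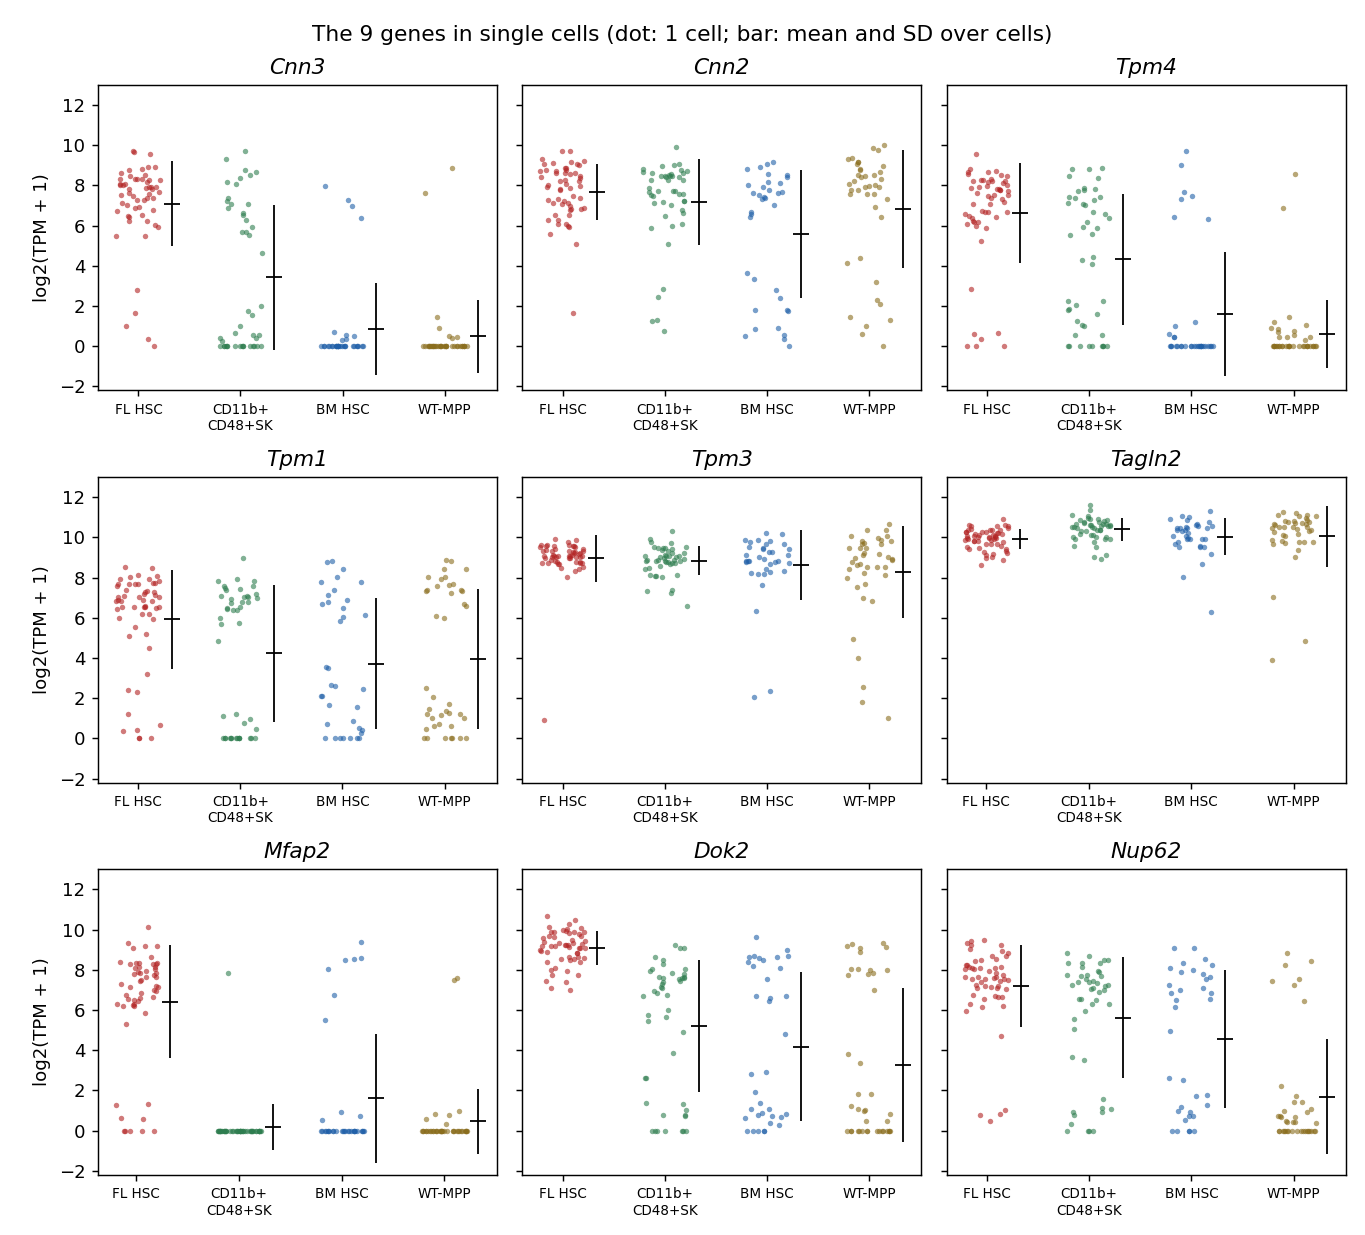
Expression of the 9 genes in single cells, as log2(TPM+1), in the 4 populations (1 dot per cell, with the mean and SD over cells beside it). For Mfap2 only 2 cells lie between 1 and 10 TPM, for Cnn3 7 and for Tpm4 14, the other cells being lower or higher, while Tagln2 was present in all 180 cells and had its lowest cells in WT-MPP.

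Cnn3 encodes the acidic calponin of non-muscle cells. In FL HSC it ranged from 0 to 841 TPM with a median of 200.1, and in CD11b+CD48+SK cells from 0 to 838 TPM with a median of 1.99. In BM HSC the median was 0 with a highest cell of 251 TPM, and in WT-MPP 0 with a highest cell of 460.1 TPM. The ranges overlap. Cnn3 was present in 54 of 56 FL HSC (96.4%, exact Clopper-Pearson 95% interval 87.7 to 99.6, which covers the counting of cells only), 24 of 47 CD11b+CD48+SK cells (51.1%, 36.1 to 65.9), 4 of 36 BM HSC (11.1%, 3.11 to 26.1) and, among WT-MPP, 3 of 41 (7.32%, 1.54 to 19.9). Among the cells in which it was present, the median was 214 TPM in FL HSC, 123 in CD11b+CD48+SK cells, 139 in BM HSC and 193 in WT-MPP. The mean log2(TPM+1) was 7.09 ± 2.12 (SD over cells, n = 56) in FL HSC, 3.43 ± 3.60 (n = 47) in CD11b+CD48+SK cells, 0.86 ± 2.27 (n = 36) in BM HSC and 0.49 ± 1.80 (n = 41) in WT-MPP. Only the step from FL HSC to the next population, 3.65, was larger than the larger SD of the pair, and BM HSC and WT-MPP did not differ beyond their spread. With a difference of 6.59, Cnn3 ranked 5th of 10856 genes for FL HSC over WT-MPP. The choice of genes used these cells, so this rank is a description only.

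Its paralog Cnn2 was widespread. The lowest, median and highest cells were at 2.20, 249 and 839.5 TPM in FL HSC, 0.68, 208 and 963 TPM in CD11b+CD48+SK cells, 0, 163 and 583 TPM in BM HSC, with WT-MPP at 0, 251 and 1028 TPM. Present in all FL HSC, it was found in 97.9% of CD11b+CD48+SK cells, 83.3% of BM HSC and 95.1% of WT-MPP. BM HSC were the lowest, at a mean log2(TPM+1) of 5.60 ± 3.19 (SD) against 7.68 ± 1.39 in FL HSC, 7.19 ± 2.15 in CD11b+CD48+SK cells and 6.85 ± 2.94 in WT-MPP, and no neighbouring pair in that order differed by more than the larger SD. Added together, the calponins averaged 515 TPM in FL HSC, 353 TPM in CD11b+CD48+SK cells and 187 TPM in BM HSC, with WT-MPP at 316 TPM. Cnn3 supplied 45% of that sum in FL HSC, 28.8% in CD11b+CD48+SK cells, 9.10% in BM HSC and 5.07% in WT-MPP. Without the cell highest in Cnn3, the share was 44.2% in FL HSC, 25.5% in CD11b+CD48+SK cells, 5.90% in BM HSC and 1.57% in WT-MPP, so the WT-MPP value rests largely on 1 cell.

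**Figure D2:**
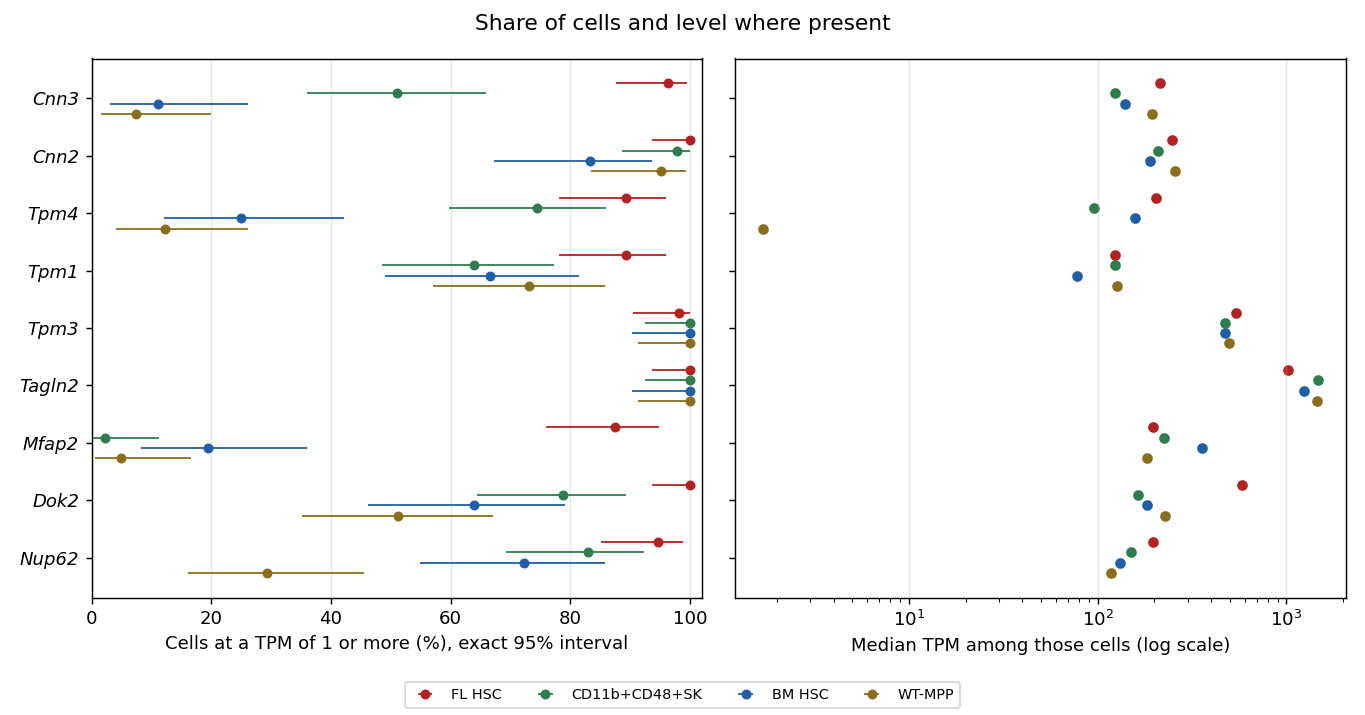
Left, the percentage of cells in which each gene was present (TPM of 1 or more) with exact 95% intervals; right, its median TPM among those cells on a log axis. On the left, the intervals of FL HSC lie above those of BM HSC and WT-MPP for Cnn3, Tpm4, Mfap2 and Dok2. For Cnn3, Mfap2 and Dok2 they also lie above those of CD11b+CD48+SK cells. For Nup62 only the WT-MPP interval lies apart from the others. Populations are close on the right, except for Dok2, which was at 580.3 TPM in FL HSC, and Tpm4 in the 5 WT-MPP cells that held it.

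Tpm4 encodes a tropomyosin of non-muscle cells and platelets. The median cell was at 181 TPM in FL HSC (range 0 to 757), 44.7 TPM in CD11b+CD48+SK cells (0 to 467) and 0 TPM in both BM HSC (0 to 839.5) and WT-MPP (0 to 378). It was present in 50 of 56 FL HSC (89.3%, 78.1 to 96.0), 35 of 47 CD11b+CD48+SK cells (74.5%, 59.7 to 86.1), 9 of 36 BM HSC (25%, 12.1 to 42.2) and, among WT-MPP, 5 of 41 (12.2%, 4.08 to 26.2). The mean log2(TPM+1) was 6.64 ± 2.48 in FL HSC, 4.32 ± 3.27 in CD11b+CD48+SK cells, 1.60 ± 3.10 in BM HSC and 0.60 ± 1.69 in WT-MPP. The difference of 3.72 from WT-MPP to CD11b+CD48+SK cells exceeded the larger SD, while no step between neighbours in the order did.

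Tpm1 was intermediate. It was at a median of 113 TPM in FL HSC (range 0 to 365), 81.8 TPM in CD11b+CD48+SK cells (0 to 501), 5.19 TPM in BM HSC (0 to 449) and 3.24 TPM in WT-MPP (0 to 472), and present in 89.3%, 63.8%, 66.7% and 73.2% of cells. A TPM of 10 or more was reached in 46 of 56 FL HSC, 28 of 47 CD11b+CD48+SK cells, 17 of 36 BM HSC and 19 of 41 WT-MPP. The order of shares below FL HSC thus depended on the threshold. The mean log2(TPM+1) of 5.93 ± 2.47 in FL HSC stood above 4.23 ± 3.39 in CD11b+CD48+SK cells, 3.95 ± 3.47 in WT-MPP and 3.72 ± 3.24 in BM HSC, all of them within the SD of one another.

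Tpm3, the most abundant tropomyosin here, was nearly level. Its median was 539.8 TPM in FL HSC (range 0.90 to 967), 475 TPM in CD11b+CD48+SK cells (96.2 to 1279), 474 TPM in BM HSC (3.19 to 1206) and 493 TPM in WT-MPP (1.04 to 1612), and 1 FL HSC was the single cell of 180 below a TPM of 1. Tpm3 made up 62.5% of mean tropomyosin TPM in FL HSC, 72.8% in CD11b+CD48+SK cells, 79.7% in BM HSC and 82.2% in WT-MPP. Tpm4 ran the other way, at 21.2%, 14.2%, 8.41% and 1.82%, or 20.4%, 13.1%, 5.43% and 0.46% without the cell highest in Tpm4. The summed mean was 901 TPM in FL HSC and 696, 678 and 672 TPM in the others. Tpm2, a muscle tropomyosin, added 24.1 TPM on average in FL HSC and was present in none of 36 BM HSC, which by the rule of 3 counts of the total limits the share of such cells with a TPM of 1 to 8.33%, for counting error only and not for transcripts that were missed.

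**Figure D3:**
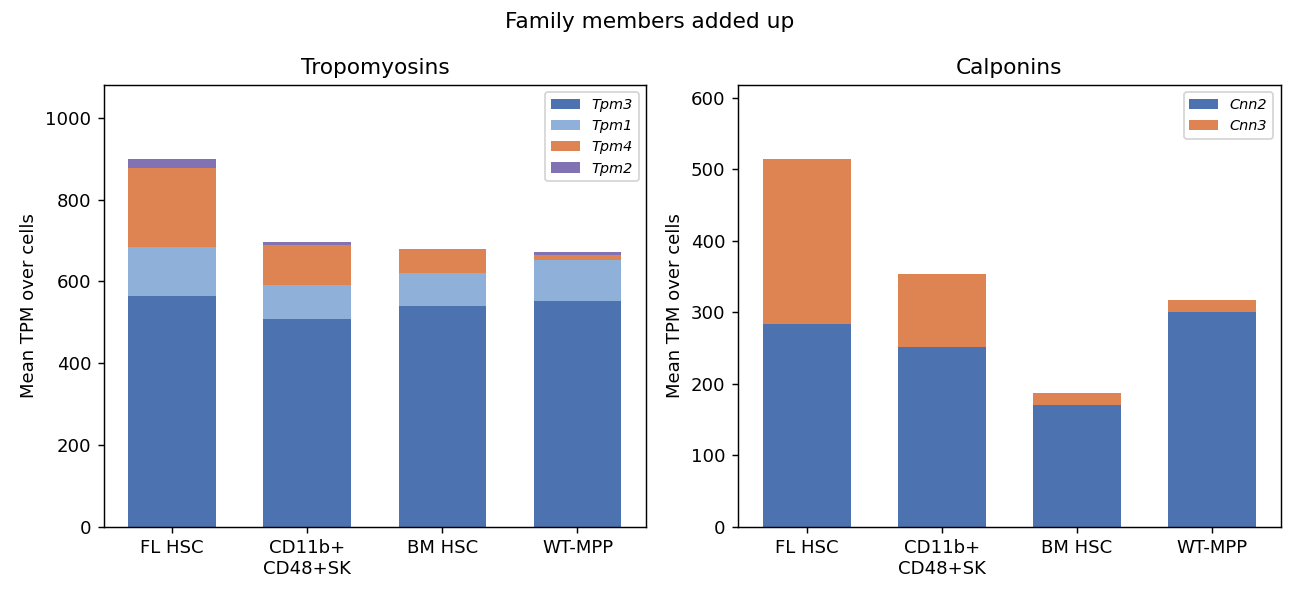
Mean TPM over cells of the tropomyosins (left) and calponins (right), stacked by gene for each population, with no error bars because each population is 1 sample. Tpm3 and Cnn2 give similar blocks in most populations, and the Tpm4 and Cnn3 blocks are tallest in FL HSC.

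Tagln2, the transgelin of blood and other non-muscle cells, was the highest of the 9 genes in TPM and present in all 180 cells. The lowest, median and highest cells were at 392, 1021 and 1905 TPM in FL HSC, 478, 1464 and 3156 TPM in CD11b+CD48+SK cells, 77.3, 1231 and 2543 TPM in BM HSC, with WT-MPP at 13.8, 1450.0 and 2469 TPM. FL HSC were the lowest, by 0.48 on the log2 scale from CD11b+CD48+SK cells (9.91 ± 0.50 against 10.40 ± 0.57), a gap smaller than either SD. FL HSC and CD11b+CD48+SK cells varied less from cell to cell than WT-MPP, whose SD was 1.51.

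Mfap2 was at a median of 151 TPM (range 0 to 1115) in FL HSC and 0 in each other population. It was present in 49 of 56 FL HSC (87.5%, 75.9 to 94.8). It was also found in 7 of 36 BM HSC (19.4%, 8.19 to 36), 2 of 41 WT-MPP (4.88%, 0.60 to 16.5) and 1 of 47 CD11b+CD48+SK cells (2.13%, 0.054 to 11.3). The few cells that held it outside the fetal liver were not low, with medians among them of 356 TPM in BM HSC, 183 TPM for WT-MPP and 225 TPM in the single CD11b+CD48+SK cell, against 197 TPM in FL HSC. Of all 180 cells only 2 lay between 1 and 10 TPM. The mean log2(TPM+1) was 6.41 ± 2.81 in FL HSC, 1.60 ± 3.20 in BM HSC, 0.45 ± 1.64 in WT-MPP and 0.17 ± 1.14 in CD11b+CD48+SK cells. It was the only one of the 9 genes lower by 1 or more in CD11b+CD48+SK cells than in BM HSC, by 1.43, where 11.8% of all genes were. That difference was -0.82 with a pseudocount of 10, -0.91 among cells with 4000 to 5000 genes present and -3.43 with TPM averaged before the log. For Cnn3, Cnn2, Tpm4, Tpm1, Tpm3, Dok2 and Nup62 the CD11b+CD48+SK cells were second to FL HSC in mean log2(TPM+1), whereas for Mfap2 they were the lowest of the 4 populations. The second place held under each setting tried for Cnn3 and Tpm4. Against WT-MPP, the values of CD11b+CD48+SK cells with median-ratio scaling and with averaging first were -0.59 and -0.25 for Cnn2, -0.56 and -0.25 for Tpm1, and -0.52 and -0.12 for Tpm3, and among cells with 4000 to 5000 genes present Cnn2 was at -0.70. Against BM HSC, Tpm3 in CD11b+CD48+SK cells was at -0.38 with that scaling, -0.093 with averaging first, -0.12 without the 10% of cells with the fewest genes present and -0.30 among cells with 4000 to 5000 genes present.

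Dok2 differed in level as well as in the share of cells. Every FL HSC held it, from 128 to 1660 TPM with a median of 580.3. CD11b+CD48+SK cells ran from 0 to 611 TPM (median 115), BM HSC from 0 to 784 TPM (median 6.34) and WT-MPP from 0 to 653 TPM (median 1.04), with the gene present in 78.7%, 63.9% and 51.2% of cells. Among cells in which it was present, the median was 164 TPM in CD11b+CD48+SK cells, 183 TPM in BM HSC and 227 TPM for WT-MPP, all lower than in FL HSC. The mean log2(TPM+1) was 9.07 ± 0.85 in FL HSC, 5.20 ± 3.28 in CD11b+CD48+SK cells, 4.17 ± 3.70 in BM HSC and 3.27 ± 3.84 in WT-MPP, so that the step below FL HSC, 3.87, exceeded the larger SD and the others did not. The mean TPM of the other 3 populations was nearly level, at 140.1 in CD11b+CD48+SK cells, 144 in BM HSC and 128 in WT-MPP. Its relative Dok1 was at 3.92 in FL HSC, 1.96 in CD11b+CD48+SK cells, 3.10 in BM HSC and 1.85 in WT-MPP.

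Nup62 was lowest in WT-MPP. The median was 195 TPM in FL HSC (range 0.37 to 701), 129 TPM in CD11b+CD48+SK cells (0 to 456), 79.7 TPM in BM HSC (0 to 541) and 0.33 TPM in WT-MPP (0 to 456). It was present in 94.6% of FL HSC (85.1 to 98.9), 83.0% of CD11b+CD48+SK cells (69.2 to 92.4), 72.2% of BM HSC (54.8 to 85.8) and in WT-MPP 29.3% (16.1 to 45.5). Means were 7.21 ± 2.04, 5.61 ± 3.0, 4.57 ± 3.43 and 1.68 ± 2.85 log2(TPM+1) in that order. The 3.93 by which CD11b+CD48+SK cells exceeded WT-MPP was larger than both SDs, while the 2.88 by which BM HSC did was smaller than the larger SD, 3.43. The difference of 3.93 was 5.37 with a pseudocount of 0.1 and 2.22 with a pseudocount of 10. It was 2.37 among cells with 4000 to 5000 genes present and 1.71 with TPM averaged before the log.

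Relative to WT-MPP, CD11b+CD48+SK cells were higher by 1 or more for 4 of the 9 genes (Cnn3, Tpm4, Dok2 and Nup62), where 19% of all genes were, and none was lower (5.01%). The Dok2 difference there, 1.93, fell below 1 with a pseudocount of 10 (0.99), among cells with 4000 to 5000 genes present (0.77) and with TPM averaged first (0.13). Relative to BM HSC, CD11b+CD48+SK cells were higher for 5 (Cnn3, Cnn2, Tpm4, Dok2 and Nup62), where 13.4% of all genes were. With TPM averaged before the log, the Cnn2 difference there went from 1.60 to 0.56 and the Tpm4 difference from 2.72 to 0.78, both below 1. BM HSC were above WT-MPP by 1 or more for Tpm4, Mfap2 and Nup62 (as were 1573 of all 10856 genes) and below for Cnn2 by 1.25 (2.67%). The value for Tpm4 in that comparison was 1.002, at the edge of the rule, and that for Mfap2, 1.14, was 0.69 with a pseudocount of 10, 0.98 without the 10% of cells with the fewest genes present and 0.021 among cells with 4000 to 5000 genes present. The Mfap2 value was larger with averaging first (2.64), a pseudocount of 0.1 (1.55) and median-ratio scaling (1.34). The Cnn2 value was -0.94 with a pseudocount of 10 and -0.81 with averaging first. The Dok2 and Nup62 differences of CD11b+CD48+SK cells from BM HSC, 1.03 and 1.04, did not hold in direction: the difference was -0.035 for Dok2 when TPM was averaged before the log, and -0.29 for Nup62 among cells with 4000 to 5000 genes present.

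The genes were also counted together in each cell. FL HSC held a median of 9 of the 9 genes (range 7 to 9), and 35 of 56 held all of them. CD11b+CD48+SK cells and BM HSC held a median of 6 (4 to 8 and 3 to 8) and WT-MPP 5 (3 to 8), and none of these cells held all 9. Among cells matched at 4000 to 5000 genes present, the median was 8 in 21 FL HSC, 6 in 24 CD11b+CD48+SK cells, 6 in 17 BM HSC and 5 in 17 WT-MPP. The choice of genes used these cells, so nothing is read from these counts either. Cnn3, Tpm4, Dok2 and Nup62 were grouped after their values were seen. They are the genes named above for exceeding WT-MPP by 1 or more in CD11b+CD48+SK cells. All 4 were present in 46 of 56 FL HSC, 18 of 47 CD11b+CD48+SK cells, 1 of 36 BM HSC and 0 of 41 WT-MPP. In 13 WT-MPP and 5 BM HSC none of the 4 was present, and in the other 2 populations no cell lacked all 4. The grouping used these cells, so nothing is read from this order.

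**Figure D4:**
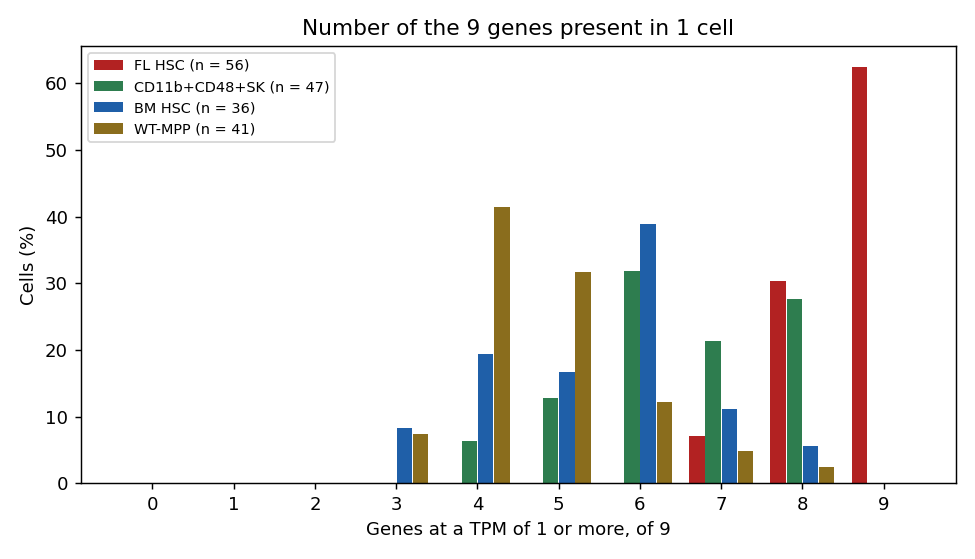
Percentage of cells of each population (vertical) by how many of the 9 genes they held as present, at or above a TPM of 1 (horizontal). FL HSC lie at 7 to 9, CD11b+CD48+SK cells at 4 to 8, and BM HSC and WT-MPP at 3 to 8.

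The median Spearman rho over pairs of the 9 genes (those present in at least 20% of the cells) was 0.050 in 56 FL HSC, 0.048 in 47 CD11b+CD48+SK cells, 0.043 in 36 BM HSC and 0.081 in 41 WT-MPP, where the median over all pairs of genes so present was 0.0062, 0.021, 0.027 and 0.024. Single pairs ran from -0.28 (Tpm1 with Tpm3) to 0.45 (Cnn2 with Dok2) in WT-MPP, from -0.22 (Cnn2 with Tpm4) to 0.47 (Tpm4 with Tpm3) in BM HSC, from -0.28 to 0.31 in CD11b+CD48+SK cells and from -0.27 to 0.29 in FL HSC. The median by Pearson's r in WT-MPP was 0.20. Cells of 1 population share their sort, and rho carries the scatter of sparse values. In CD11b+CD48+SK cells, 21 held both Cnn3 and Tpm4, 3 Cnn3 alone, 14 Tpm4 alone and 9 neither. With the mean of 20 cycling genes, among them Pcna, Mcm2 and Mki67, Nup62 had the highest rho of the genes in FL HSC (0.49) and in CD11b+CD48+SK cells (0.49), and it was at 0.18 in BM HSC and 0.06 in WT-MPP. Its rho with the number of genes present was 0.28, 0.51, 0.26 and 0.23, and the part of that number in the relation was not tested. Cnn3, Tpm4 and Mfap2 had a rho with the cycling genes of -0.01, 0.00 and 0.04 in FL HSC. The rho of the genes with Hoxb5 lay between -0.27 (Dok2) and 0.30 (Tpm3), both in CD11b+CD48+SK cells.

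The genes most like each of the 9 were sought by Pearson's r of log2(TPM+1). Over all 180 cells, where a common difference between populations enters r, Hbb-b2 (a beta globin) was the nearest to Mfap2 (0.72), Cnn3 (0.63) and Dok2 (0.58). Cnn3 was itself among the 3 nearest to Tpm4 (0.55), and Tagln2 was nearest to the ribosomal protein gene Rplp0 (0.50). Over the 56 FL HSC alone, Tpm4 had Atp1b3 (0.51) and Vim (0.51), the intermediate filament gene vimentin, as its nearest, Nup62 had Eif3i (0.58) and the replication protein gene Rpa3 (0.58), and Dok2 had Psph (0.58). The highest r, 0.84 between Tpm3 and Spint2, rested on 1 cell and was -0.03 without it.

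Other genes of the actin machinery were counted by list. In 9 lists of actin genes chosen with earlier results known, 73 genes besides the 9 passed the filter. In FL HSC 18 of them were higher than in WT-MPP by 1 or more and 3 lower, 16 were higher than in BM HSC and 4 lower, and 10 were higher than in CD11b+CD48+SK cells and 3 lower. The shares higher, 24.7%, 21.9% and 13.7%, stand beside 33.9%, 25.6% and 20.9% of all genes, and for BM HSC the order of these shares turned with a pseudocount of 10. The median difference was 0.36, 0.27 and 0.11, against 0.56, 0.31 and 0.32 over all genes. The actins themselves, Actb and Actg1, were within 1 in every comparison. Actb was at a mean log2(TPM+1) of 11.85 in FL HSC, 12.37 in CD11b+CD48+SK cells, 11.85 in BM HSC and 12.48 in WT-MPP.

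The actin genes with the largest differences were of several kinds. Dstn, encoding the filament-severing protein destrin, was at 7.17 in FL HSC, 2.03 in CD11b+CD48+SK cells, 5.10 in BM HSC and 3.70 in WT-MPP, so that CD11b+CD48+SK cells were the lowest. Fscn1, encoding the bundling protein fascin, was at 3.44, 0, 1.57 and 0.70, and present in none of the 47 CD11b+CD48+SK cells, a limit of 6.38% by the same rule. Like Mfap2, Dstn and Fscn1 were thus lowest in CD11b+CD48+SK cells, although most of the 9 genes were not. Of the 73 listed actin genes, 8 were lower by 1 or more in CD11b+CD48+SK cells than in BM HSC and 11 higher (11.8% and 13.4% of all genes). Against WT-MPP, 2 were lower and 6 higher (5.01% and 19% of all genes). In the other direction, Actr2, a subunit of the Arp2/3 nucleator, was lowest in FL HSC at 4.46 and highest in WT-MPP at 7.33, while Arpc1a, of the same complex, was at 6.13 in FL HSC and 2.80 in WT-MPP. Gsn, encoding gelsolin, was highest in CD11b+CD48+SK cells at 3.72, against 2.06 in FL HSC, 1.3 in BM HSC and 0.98 in WT-MPP.

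Nuclear pore genes other than Nup62 were counted in the same way. Of 26 that passed the filter, 16 were higher by 1 or more than in WT-MPP and 15 than in BM HSC, with none lower in either, and 7 were higher than in CD11b+CD48+SK cells with 1 lower (Nup210). These are 61.5%, 57.7% and 26.9% of the list, against 33.9%, 25.6% and 20.9% of all genes, the last being near the list's share. The median difference was 1.17, 1.04 and 0.31, against 0.56, 0.31 and 0.32 over all genes. Examples are Nup37, of the outer ring of the pore, at 5.76 in FL HSC against 2.24 in WT-MPP, and Nup88 at 4.98 against 2.19. The difference of Nup62 itself from WT-MPP, 5.53, was larger than that of any of the 26. The choice of Nup62 used these cells, so nothing is read from its place. The cycling genes were higher too, 18 of 20 of them higher by 1 or more in FL HSC than in WT-MPP and 18 than in BM HSC, and 18 were higher in CD11b+CD48+SK cells when set against WT-MPP, where 33.9%, 25.6% and 19% of all genes were. Their part in the Nup62 result was not tested.

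Microfibril partners of Mfap2 were mostly missing. Of 11 genes, 6 are listed and 2 passed the filter, Emilin1 at 5.23 in FL HSC, 2.81 in CD11b+CD48+SK cells, 4.37 in BM HSC and 2.85 in WT-MPP, and Ltbp3, listed at 0 in every FL HSC and at 1.36 in WT-MPP. Eln, Fbn1, Fbn2, Fbln5 and Mfap5 are not among the listed genes.

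**Figure D5:**
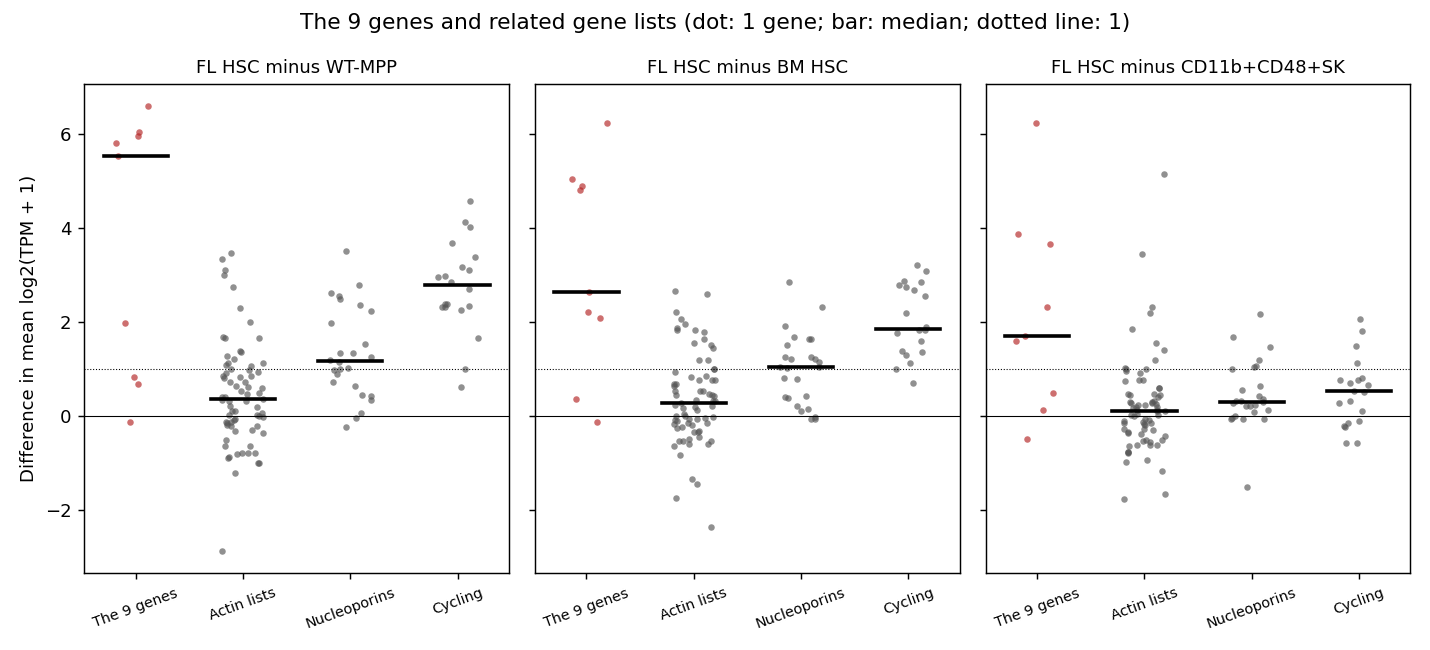
Difference in mean log2(TPM+1) of FL HSC from WT-MPP, BM HSC and CD11b+CD48+SK cells (left to right) for the 9 genes, the other actin genes, the nucleoporins and the cycling genes, with 1 dot per gene, a bar at the median and a dotted line at 1. The actin genes centre at 0.36, 0.27 and 0.11. In the left panel 5 of the 9 genes (Cnn3, Tpm4, Mfap2, Dok2 and Nup62) lie above all of them, and Mfap2, Dok2 and Nup62 are not actin genes. The choice of the 9 genes used these cells, so nothing is read from their place.

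Markers of other cell types also differed with FL HSC. At least 1 of the 5 listed hepatic markers was present in 37 of 56 FL HSC (median summed TPM 15.2, range 0 to 160.0), 13 of 47 CD11b+CD48+SK cells (0 to 249), 15 of 36 BM HSC (0 to 92.0) and, among WT-MPP, 9 of 41 (0 to 179). Alb, the defining hepatocyte gene, was present in 1.79% of FL HSC and at 0 in the other 3 populations. The 6 endothelial markers had a median sum of 111 TPM in FL HSC (range 0 to 780.4), 0 in CD11b+CD48+SK cells (0 to 274), 0.76 TPM in BM HSC (0 to 573) and 1.56 TPM in WT-MPP (0 to 3749), with at least 1 present in 46 of 56, 11 of 47, 16 of 36 and 29 of 41 cells. Of these, Lyve1 was at 0 in FL HSC and Stab2 and Kdr were each present in 1.79%. The 6 macrophage markers had a median sum of 40.1 TPM in FL HSC (0 to 1461) and 0 in each other population (up to 829, 738 and 4139 TPM in CD11b+CD48+SK cells, BM HSC and WT-MPP), with at least 1 present in 32 of 56 FL HSC against 11 of 47, 9 of 36 and 16 of 41. The 4 listed erythroid markers had a median sum of 29.7 TPM in FL HSC (0 to 203), 0 in CD11b+CD48+SK cells (0 to 118), 0.29 TPM in BM HSC (0 to 451) and 0 in WT-MPP (0 to 208), with at least 1 present in 32 of 56, 9 of 47, 12 of 36 and 7 of 41 cells. Endothelial, macrophage and erythroid markers were thus each present in a larger share of FL HSC than of the other populations. The 6 listed platelet markers had medians of 161 TPM in FL HSC, 0.23 TPM in CD11b+CD48+SK cells and 167 TPM in BM HSC, with WT-MPP at 3.41 TPM. The 2 listed stromal markers reached a TPM of 1 in 3 FL HSC, 11 CD11b+CD48+SK cells, 0 BM HSC and 3 WT-MPP, and Tagln was at 0 in FL HSC. The gene of each list present in the largest share of FL HSC was Dlk1 for hepatic (51.8% of cells), Emcn for endothelial (71.4%, and 65.9% in WT-MPP), Cd68 for macrophage (51.8%) and Epor for erythroid markers (41.1%). The part of the hepatic, endothelial, macrophage, erythroid and platelet markers in the levels above was not tested. Without the cells holding a stromal marker, FL HSC exceeded WT-MPP by 6.54 for Cnn3, 6.08 for Tpm4 and 6.01 for Mfap2. This left out only 3 FL HSC and 3 WT-MPP, so it could hardly move these values. No such removal was made for the other markers.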

How the data were processed

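The labels name HISAT2 (version 2.1.0), SAMtools (0.1.19), StringTie (1.3.4), bcl2fastq and mm10. The authors deposited 1 table of TPM, normalised so that every cell sums to 1e+06 over the listed genes. The gene annotation and the filter behind the table are not given in the sources used here. Of its 181 columns of cells, 1, a WT-MPP column by its name, had no sample and was not used. The WT-MPP set is therefore smaller than the one the paper gives. No cell was filtered out, and doublets were not called because each library was 1 sorted cell. No 2 cells had identical values, the highest Pearson r between cells being 0.81.

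Each population's level was the mean of log2(TPM+1) across its cells. The work was done in Python 3.11.15 (scipy 1.17.1, pandas 2.3.3, numpy 2.4.6 and, for plots, matplotlib 3.10.9). The differences were checked on the WT-MPP cells divided into parts, with known changes added to some genes in 1 part. The correlations were checked on random numbers. A difference of 1 or more on this scale counted as higher or lower. Because no animal is named, no test was made and no p-value computed. The 9 genes and all lists were chosen with earlier results of these data known. Besides the 9 genes, the text names genes from these lists, at most 4 with the largest differences at each end of a list, the 3 nearest genes to each by r, and markers. Positions and shared stretches came from GENCODE M21, and upstream sequences from RefSeq. Alternatives covered the pseudocount, averaging, scaling, filters, presence threshold and choice of cells.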

Additional observations from a re-analysis of the deposited data

How the results depend on the processing

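FL HSC exceeded WT-MPP, BM HSC and CD11b+CD48+SK cells for Cnn3, Tpm4, Mfap2, Dok2 and Nup62 under each alternative tried, among them cells with 4000 to 5000 genes present, an alternative chosen after seeing the data, but the size depended on the averaging. For Cnn3 against WT-MPP the difference was 9.37 with a pseudocount of 0.1, 3.79 with 10 and 3.77 when TPM was averaged before the log. Averaging first left 4 of the 9 genes higher by 1 or more in FL HSC than in BM HSC (11.8% of all genes), 3 in FL HSC than in CD11b+CD48+SK cells (19.5%) and 1 in CD11b+CD48+SK cells than in BM HSC (9.78%). That last count was 3 with a pseudocount of 10 (4.95%), 3 with cells scaled by the median ratio (8.61%) and 3 without the 10% of cells with the fewest genes present (12.9%). The count for BM HSC over WT-MPP was 1 with a pseudocount of 10 (3.41%), 1 without those 10% (17.1%) and 1 among cells with 4000 to 5000 genes present (13.4%). That for CD11b+CD48+SK cells over WT-MPP went from 4 to 3 with a pseudocount of 10 (6.95%), with averaging first (10.3%) and among those cells (11.8%). The other actin genes higher in FL HSC than in WT-MPP numbered 7 of 73 with a pseudocount of 10 (14.3% of all genes), 5 with averaging first (14.8%) and 8 with scaling (19%), those higher than in BM HSC 10 (9.61%), 5 (11.8%) and 8 (15.3%), and those higher than in CD11b+CD48+SK cells 5 with a pseudocount of 10 (7.12%). For CD11b+CD48+SK cells against BM HSC, Dok2 turned to -0.035 with averaging first and Nup62 to -0.29 among cells with 4000 to 5000 genes present. Cnn2, Tpm1, Tpm3 and Tagln2, at differences under 1, changed sign in comparisons given above and in others. With scaling, Tagln2 in CD11b+CD48+SK cells went from 0.35 to -0.74 against WT-MPP and from 0.36 to -0.26 against BM HSC, and Tpm3 in BM HSC from 0.33 to -0.14 against WT-MPP (-0.031 with averaging first). Tagln2 in BM HSC against WT-MPP, -0.011, was 0.0068 without cells holding a stromal marker. Leaving out the cell highest in Cnn3 or Tpm4, also chosen after seeing the data, lowered their family shares in both adult marrow populations by over 1.5 times. The causes were not tested.

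Scaling cells by the median ratio moved the median of all genes for FL HSC over WT-MPP from 0.56 to 0.14, and the genes higher by 1 or more there from 3679 to 2063. That number was 1547 with a pseudocount of 10, 1607 with averaging first and 2123 among the matched cells. No paired analysis was possible because the cell numbers of different populations mark no shared animal and no test was made. Depth per cell is unknown, so an absent transcript cannot be told from one that was missed.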
